A study of Mus musculus with 4 samples.

Results

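Transcripts of 36 genes that encode the machinery of chromosome condensation and segregation were followed in mouse primary spermatocytes with and without circSRY, the circular RNA made from the sex-determining gene Sry. The genes were chosen by name for their known function, with earlier results of these data known. They cover the condensin complexes, topoisomerase II, the kinetochore, the chromosomal passenger complex, the spindle checkpoint, the control of separase and the acetyltransferases of cohesin. All 36 were found among the 53700 genes of the table, on 16 chromosomes, and all 36 were among the 17766 genes with enough counts to be tested.

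The circSRY KO mice carried a CRISPR-Cas9 deletion that removed the splice acceptor that lies before the Sry coding sequence, so that the circle cannot form. Their control was the wild type. All mice were of the C57BL/6 strain and 8 wk old, with 2 mice per group, which gave circSRY KO replicates 1 and 2 and control replicates 2 and 3. Spermatocytes were gated from dispersed testis cells on their Hoechst fluorescence, a measure of DNA content, and polyadenylated RNA was sequenced with a kit that keeps no strand information. Expected counts, the reads assigned to a gene by a probabilistic counter, summed to 8839461 and 8191397 in the circSRY KO libraries and to 8045148 and 8422943 in the control libraries. Levels are given in TPM, which divides counts by transcript length and scales each library to a fixed sum, so that genes can be set side by side. Sry had a count of 0 in each of the 4 libraries, and since the circle has no poly(A) tail, these libraries do not check the genotype. In sorted bulk cells, fewer cells of a type and less RNA per cell cannot be told apart.

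Condensin I and condensin II are rings built on a shared pair of SMC ATPases, and they fold chromatin loops into rod-shaped chromosomes before division. The kinetochore assembles on centromeric chromatin that carries the histone variant CENP-A, and its outer layer grips microtubules through the NDC80 complex and KNL1. The spindle checkpoint reads kinetochores that lack microtubules and holds the anaphase-promoting complex inactive, which keeps separase bound to its inhibitor securin. Primary spermatocytes build up this machinery during the long meiotic prophase and use it at the meiotic divisions.

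RNA of most spindle checkpoint genes and of some genes of condensin, the kinetochore and the passenger complex was called lower in circSRY KO spermatocytes. RNA of several partner subunits was not called. For condensin this was partly a matter of threshold. All 8 of its genes had negative fold changes, and Smc4 and Ncaph2 missed only the fold change threshold given next. Of the 36 genes, 15 fell, 1 rose and 20 were not called, where a call asked for an adjusted p under 0.05 together with a log2 fold change of 1 or more in either direction (edgeR's quasi-likelihood test, Benjamini-Hochberg over all genes tested). The share of all tested genes called lower was 15.0%, and the share called higher was 20.0%. The fitted fold change was negative for 31 of the 36 genes, and its median was -0.81 on the log2 scale, beside 0.07 over all genes tested. The genes that fell were Ncapd2, Ncapd3, Ncapg2, Top2a, Cenpc1, Spc24, Knl1, Kif11, Cdca8, Bub1b, Bub3, Mad1l1, Mad2l1, Esco1 and Esco2, and the gene that rose was Spc25.

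In TPM, 30 of the 36 genes had both circSRY KO libraries below both control libraries, and 2 (Spc25 and Cenpe) had both above. The same was true of 38.8% and 29.5% of all genes tested. TPM also depends on the transcript length assigned in each library, and counts of some of the 30 genes overlapped between groups. Counts of Ttk were 678 and 581 in circSRY KO and 596 and 670 in control, and those of Pttg1 were 738 and 351 in circSRY KO and 633 and 729 in control. Summed over the 36 genes, TPM came to 1420 and 1258 in circSRY KO libraries and to 2291 and 2060 in control libraries, and the groups did not overlap. Single values ran between 3.05 TPM for Knl1 in a circSRY KO library and 269.8 TPM for Smc4 in a control library.

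**Figure D1:**
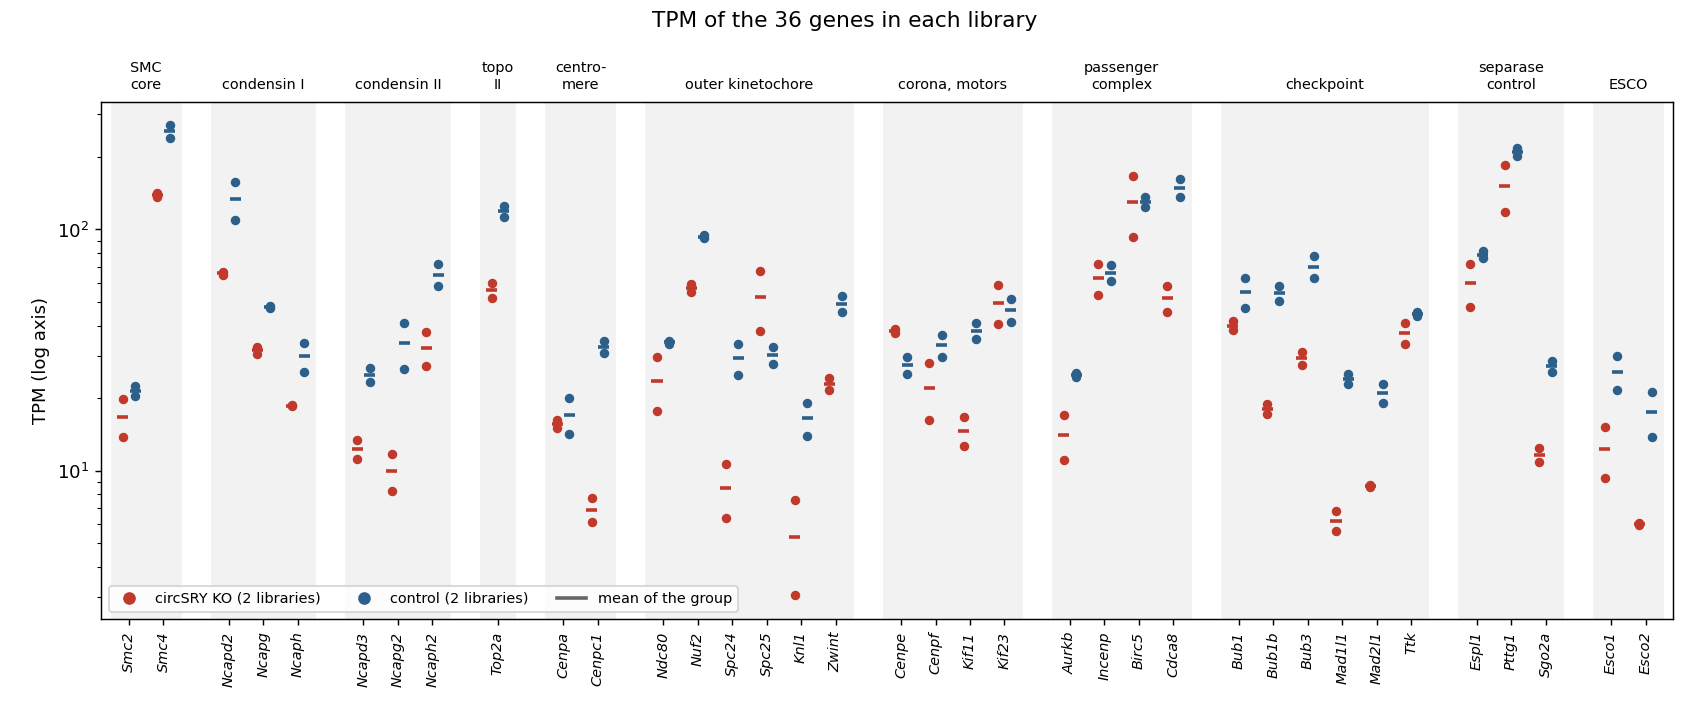
TPM (log axis) of each of the 36 genes in each library, ordered by role, with circSRY KO libraries in red to the left of control libraries in blue and a bar at each group's mean of 2 libraries. Red points lie below blue points for 30 genes and above them for Spc25 and Cenpe, and the remaining 4 genes overlap.

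The number of genes called lower changed when 1 library was left out. Such a fit keeps 1 library in that group and takes the spread between replicates from the other group alone. Its count of calls therefore cannot show how much of the difference rested on the library left out. Without control replicate 2, 2 of the 36 genes stayed lower (Cenpc1 and Mad1l1), where 5.01% of all genes tested were called lower, and 12 were lower at an unadjusted p under 0.05. Without control replicate 3, 9 were called lower, beside 9.64% of all genes tested. Without circSRY KO replicate 1 the count was 17 (beside 16.4%), and without circSRY KO replicate 2 it was 11 (beside 18.1%). The median over the 36 genes stayed between -0.97 and -0.71 in these fits. With upper-quartile scaling 9 genes were called lower, beside 11.0% of all genes tested, and the median was -0.60, but the median of all genes tested then moved to 0.28, and the distance between the medians was -0.88 under both scalings. Higher genes made up 57.1% of all calls with TMM, the scaling used throughout, 69.2% with upper-quartile scaling and 43.9% when limma was run on log2(TPM + 1) (43.6% with a pseudocount of 0.1), where the median of all genes was -0.13 and that of the 36 genes -0.92 with the pseudocount of 1.

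**Figure D2:**
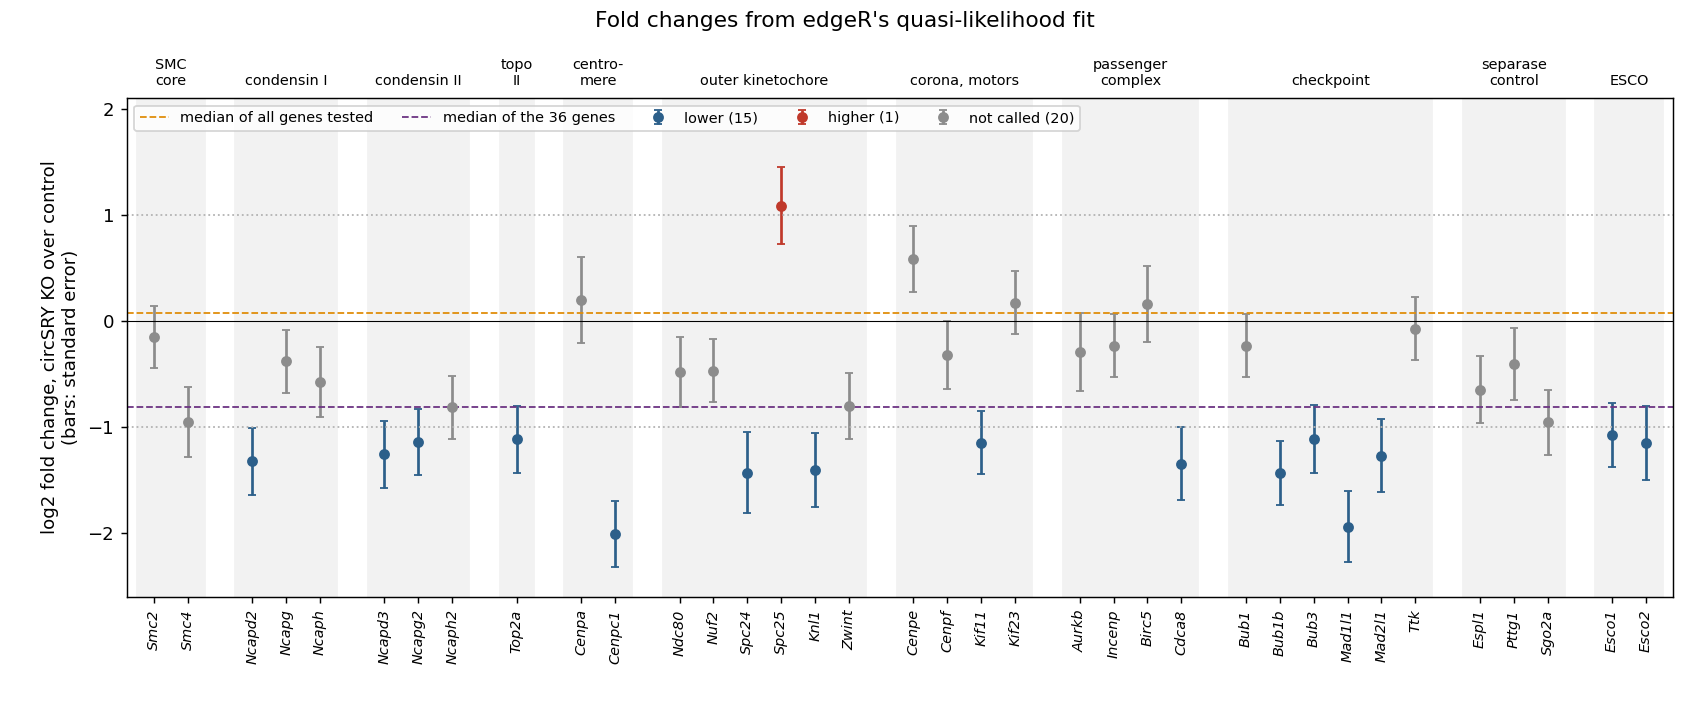
Log2 fold change of circSRY KO over control for each of the 36 genes from edgeR's quasi-likelihood fit, with its standard error (2 libraries per group). The 15 genes that fell (blue) lie below -1, Spc25 (red) lies at 1.09, and dashed lines mark the median of the 36 genes (-0.81) and of all genes tested (0.07).

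Sequence upstream of the genes was examined because promoters of genes used in G2 and mitosis often carry a CCAAT box, the letters bound by NF-Y, and a cell cycle genes homology region, most often TTTGAA or TTTAAA, which is bound by MuvB complexes. Promoter windows from RefSeq on GRCm38.p6, 250 bases before to 50 after a transcript start, were matched for 30 of the 36 genes and gave 34 windows, of which the 2 of Bub3 overlap. Both strands were searched. TTTGAA was found in 19 of the 34 windows (55.9%), against 13.3% of 16212 windows of genes tested and 17.9% of all 32851 windows. TTTAAA was in 8 windows (23.5%, against 9.88% and 13.2%) and CCAAT in 21 (61.8%, against 37.5% and 37.4%).

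AACTG, the core of the site read by MYB proteins, was in 20 windows (58.8%, against 39.6% of windows of genes tested and 44.8% of all windows), and the GC box GGGCGG in 25 (73.5%, against 55.1% and 35.7%). TTTGAA and AACTG share letters and can overlap. TTTGAA stood in 10 of the 15 windows of genes that fell and in 9 of the 19 windows of the other genes. A match is a string of letters and not a bound site, and shares of windows were not tested.

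The 120 bases before the start are shown for 7 genes to set the letters beside the values given below, with CCAAT and either TTTGAA or TTTAAA, or their reverse complements, in capitals (GRCm38.p6, written along the gene's own strand).
Top2a, chr11:99024190-99024309, minus strand: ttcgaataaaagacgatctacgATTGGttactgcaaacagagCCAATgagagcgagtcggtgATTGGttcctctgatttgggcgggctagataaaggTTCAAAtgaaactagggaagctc
Kif11, chr19:37376262-37376381, plus strand: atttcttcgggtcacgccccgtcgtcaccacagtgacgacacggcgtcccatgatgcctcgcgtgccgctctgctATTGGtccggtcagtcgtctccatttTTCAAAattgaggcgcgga
Ncapg2, chr12:116405316-116405435, plus strand: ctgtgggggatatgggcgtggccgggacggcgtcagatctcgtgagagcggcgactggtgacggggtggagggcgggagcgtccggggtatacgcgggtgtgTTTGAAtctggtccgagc
Bub3, chr7:131560250-131560369, plus strand: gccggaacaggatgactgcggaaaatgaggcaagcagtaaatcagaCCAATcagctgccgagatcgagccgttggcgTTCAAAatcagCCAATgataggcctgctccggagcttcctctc
Espl1, chr15:102296173-102296292, plus strand: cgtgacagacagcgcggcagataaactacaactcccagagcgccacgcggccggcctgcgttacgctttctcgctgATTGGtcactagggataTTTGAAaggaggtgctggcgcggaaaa
Spc25, chr2:69206214-69206333, minus strand: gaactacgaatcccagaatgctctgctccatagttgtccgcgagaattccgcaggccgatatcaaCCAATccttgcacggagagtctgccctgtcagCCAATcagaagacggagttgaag
Cenpc1, chr5:86065584-86065703, minus strand: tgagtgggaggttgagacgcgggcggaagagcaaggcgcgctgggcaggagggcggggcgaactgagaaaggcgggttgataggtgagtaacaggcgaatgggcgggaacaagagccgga

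Top2a, Kif11 and Bub3, which all fell, carried TTTGAA on the reverse strand at -23, -19 and -43 from the start. CCAAT lay at -58, -78 and -98 in Top2a, at -45 in Kif11 and at -32 and -74 in Bub3. Ncapg2, which also fell, had TTTGAA at -18 without a CCAAT box in this stretch. The separase gene Espl1 had the same pair of motifs, at -27 and -44, and was not called (log2 fold change -0.65). Spc25, the gene that rose, had CCAAT at -23 and -55, and TTTGAA only after its start. Cenpc1, which had the most negative fold change of the 36 genes, held CCAAT and TTTAAA only after its start, outside the stretch shown, and TTTGAA nowhere in its window. TTTGAA was thus present both in genes that fell and in genes that were not called. In whole windows of genes not called, it lay before the start in Espl1, Ncapg (-30) and Smc2 (-145). It lay only after the start in Cenpa, Cenpf, Kif23, Ndc80 and Ttk.

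The SMC core shared by both condensins was lower in TPM for both of its genes, and neither was called. Smc4, the most abundant transcript of the 36 in control libraries, had 136 and 142 TPM in circSRY KO libraries and 269.8 and 240.2 TPM in control libraries. Its log2 fold change was -0.95 ± 0.33 (SE) with an adjusted p of 0.0324, just short of the size threshold. Its partner Smc2 had 13.8 and 19.8 TPM in circSRY KO, against 22.5 and 20.4 TPM in control. The difference for Smc2 was small beside its error (-0.15 ± 0.30, adjusted p = 0.711). Smc4 exceeded Smc2 9.85- and 7.18-fold in circSRY KO libraries and 12.0- and 11.8-fold in control libraries.

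Of the condensin I subunits, the HEAT-repeat subunit Ncapd2 fell. It had 66.9 and 65.0 TPM in circSRY KO and 158 and 109 TPM in control, without overlap (log2 fold change -1.33 ± 0.31, adjusted p = 0.00455). Ncapg, the other HEAT-repeat subunit, had 30.6 and 32.7 TPM in circSRY KO and 48.2 and 47.3 TPM in control, and its fold change of -0.38 was not called. The kleisin Ncaph, which closes the ring, was not called either (-0.57, adjusted p = 0.187). Exons of Ncapd2 overlap the mitochondrial ribosomal gene Mrpl51 on the opposite strand, and those of Ncapg overlap Lcorl. Since the kit keeps no strand, reads in these overlaps cannot be told apart. Mrpl51 had 1523 and 697 counts in circSRY KO libraries and 869 and 1001 in control libraries, a pattern unlike that of Ncapd2, while Lcorl had 242 and 253 counts in circSRY KO and 931 and 873 in control.

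Condensin II, which is nuclear throughout the cycle, had 2 of its 3 specific subunits called lower, beside 15.0% of all genes tested. Ncapd3 had 13.4 and 11.2 TPM in circSRY KO, against 26.6 and 23.3 TPM in control (-1.26 ± 0.32, adjusted p = 0.00688). Ncapg2 had 8.27 and 11.7 TPM in circSRY KO and 41.1 and 26.4 TPM in control (-1.14 ± 0.31, adjusted p = 0.0108). The control libraries of Ncapg2 stood 1.56-fold apart, the widest gap between control libraries among the 36 genes, yet both lay above the circSRY KO libraries. Its counts were 239 and 249 in circSRY KO and 600 and 436 in control, a smaller difference than in TPM, which also depends on the transcript length assigned in each library. The kleisin Ncaph2, at 37.6 and 27.1 TPM in circSRY KO and 71.7 and 58.1 TPM in control, missed the size threshold (-0.81, adjusted p = 0.0432).

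Over the 8 condensin subunits, summed TPM was 325 and 328 in circSRY KO libraries and 671 and 551 in control libraries, and all 8 had a negative fold change. Top2a, the topoisomerase that untangles sister DNA and acts beside condensin, fell as well. It had 59.8 and 52.1 TPM in circSRY KO and 125 and 113 TPM in control (-1.12 ± 0.32, adjusted p = 0.0130).

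At the centromere, Cenpc1 fell while Cenpa did not. CENP-C, the product of Cenpc1 (GRCm39 chr5:86159875-86213890, minus strand, a protein-coding gene of 19 exons), links CENP-A chromatin to the outer kinetochore. Cenpc1 had 6.13 and 7.69 TPM in circSRY KO libraries and 34.4 and 30.9 TPM in control libraries, so that the groups were far apart and the replicates close. Its log2 fold change of -2.01 ± 0.31 was the most negative of the 36 genes (adjusted p = 0.000341), and it was called lower in each of the 14 fits made here. Cenpa, the histone variant itself, overlapped between the groups, with 16.2 and 15.0 TPM in circSRY KO and 14.3 and 20.0 TPM in control (0.20 ± 0.40). Cenpa had low counts, 61 to 117 per library, and its direction was not stable, being negative without circSRY KO replicate 1 (-0.28) and with limma on TPM (-0.11).

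The NDC80 complex is a rod-shaped complex of partner proteins, and its genes did not move together. Spc24 fell, with 10.6 and 6.36 TPM in circSRY KO and 33.4 and 25.0 TPM in control (-1.43 ± 0.38, adjusted p = 0.00944). Spc25 (GRCm39 chr2:69009753-69036574, minus strand, 7 exons), whose protein pairs with SPC24 at the inner end of the rod, had 67.2 and 37.9 TPM in circSRY KO and 32.6 and 27.6 TPM in control. Both circSRY KO libraries of Spc25 were above both controls, but replicate 1 was far higher than replicate 2. Its counts were 544 and 242 in circSRY KO and 179 and 170 in control (1.09 ± 0.36, adjusted p = 0.0281). The call was lost when circSRY KO replicate 1 (0.46), control replicate 2 (1.11) or control replicate 3 (1.01) was left out, and with limma-voom (1.00) or limma on log2(TPM + 1) (0.73). Exons of Spc25 overlap Nostrin on the opposite strand, which had only 3 to 6 counts per library.

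Ndc80 and Nuf2, which form the microtubule-binding end of the same rod, were lower in TPM without being called. Nuf2 had 54.8 and 59.4 TPM in circSRY KO and 94.8 and 91.8 TPM in control (-0.47), and Ndc80 had a fold change of -0.48. Knl1, the scaffold that recruits checkpoint proteins, fell. It had the lowest mean level of the 36 genes in both groups, 3.05 and 7.56 TPM in circSRY KO and 19.1 and 14.0 TPM in control (-1.40 ± 0.35, adjusted p = 0.00665). Zwint, which binds KNL1, came to 24.2 and 21.7 TPM in circSRY KO and 53.0 and 45.6 TPM in control, and it missed the thresholds (-0.80, adjusted p = 0.0516).

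Among motors and corona proteins, the spindle kinesin Kif11 fell and the kinetochore kinesin Cenpe did not. Kif11, which pushes spindle poles apart, had 12.6 and 16.7 TPM in circSRY KO and 41.0 and 35.0 TPM in control (-1.15 ± 0.30, adjusted p = 0.00827). Cenpe, which carries chromosomes to the spindle equator, had 37.2 and 38.7 TPM in circSRY KO and 25.1 and 29.7 TPM in control. Its groups did not overlap, but the difference was not called (0.58 ± 0.31, adjusted p = 0.151). Kif23, a kinesin of the central spindle, overlapped between groups at 40.7 and 58.8 TPM in circSRY KO and 51.4 and 41.5 TPM in control (0.17). Cenpf, a corona protein, was not called (-0.32).

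Within the chromosomal passenger complex, which corrects faulty microtubule attachments, 1 of 4 genes fell, beside 15.0% of all genes tested. Cdca8, the gene of borealin, had 58.4 and 45.3 TPM in circSRY KO and 161 and 136 TPM in control (-1.35 ± 0.34, adjusted p = 0.00706). Birc5, the gene of survivin, which binds borealin directly, had 167 and 92.7 TPM in circSRY KO and 124 and 136 TPM in control. The circSRY KO libraries of Birc5 fell on either side of the controls and stood 1.80-fold apart, the widest gap between circSRY KO libraries in that direction. The fitted difference for Birc5 was 0.16 ± 0.36, and it was -0.51 without circSRY KO replicate 1. Incenp, the scaffold of the complex, and Aurkb, its kinase, had fold changes of -0.23 and -0.29 and were not called.

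Borealin RNA made up 18.6% and 22.4% of the summed TPM of the 4 passenger genes in circSRY KO libraries and 43.5% and 36.9% in control libraries. Cdca8 exons overlap those of Airim on the opposite strand, and Airim counts were also lower, at 53 and 67 in circSRY KO and 243 and 201 in control. How reads in that overlap were divided was not tested.

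The spindle checkpoint had the highest share of called genes among the roles with 4 or more genes, with 4 of 6 lower. Some smaller roles reached or passed that share, namely condensin II (2 of 3), the cohesin acetyltransferases (2 of 2) and topoisomerase II (1 of 1). Of all genes tested, 15.0% were called lower. Mad1l1 (GRCm39 chr5:139994439-140307351, minus strand, 18 exons), which anchors MAD2 at unattached kinetochores, had 6.83 and 5.61 TPM in circSRY KO and 25.2 and 22.9 TPM in control. It fell by 1.94 ± 0.33 on the log2 scale (adjusted p = 0.000647), and like Cenpc1 it was called lower in each of the 14 fits. Mad2l1, the gene of MAD2 itself, had 8.71 and 8.54 TPM in circSRY KO and 22.9 and 19.1 TPM in control (-1.27 ± 0.34, adjusted p = 0.0102).

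Bub1b, whose product BUBR1 is part of the complex that blocks the anaphase-promoting complex, had 17.1 and 19.0 TPM in circSRY KO and 58.5 and 50.6 TPM in control (-1.43 ± 0.30, adjusted p = 0.00236). Bub3, which carries BUBR1 and BUB1 to KNL1, had 31.0 and 27.6 TPM in circSRY KO and 77.5 and 62.7 TPM in control (-1.11 ± 0.32, adjusted p = 0.0144). The kinase gene Bub1 was closer between groups, at 38.4 and 41.6 TPM in circSRY KO and 62.7 and 47.4 TPM in control (-0.23, adjusted p = 0.569). Ttk, the kinase at the head of the checkpoint, had the smallest difference of the 36 genes (-0.07 ± 0.30), with counts of 678 and 581 in circSRY KO and 596 and 670 in control.

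None of the 3 genes of separase control was called. Pttg1, the gene of securin, had 185 and 118 TPM in circSRY KO and 202 and 218 TPM in control (-0.41). Espl1, separase, had 47.7 and 72.2 TPM in circSRY KO and 81.2 and 76.0 TPM in control (-0.65, adjusted p = 0.117). Sgo2a, a shugoshin that protects centromeric cohesin in meiosis, came nearest, at 12.5 and 10.9 TPM in circSRY KO and 28.5 and 25.8 TPM in control (-0.96 ± 0.31, adjusted p = 0.0248). Its exons overlap those of Kctd18 on the opposite strand, with 338 and 285 counts in circSRY KO and 673 and 658 in control.

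Both acetyltransferases that lock cohesin onto sister chromatids fell. Esco1 had 15.2 and 9.34 TPM in circSRY KO and 29.9 and 21.5 TPM in control (-1.08 ± 0.31, adjusted p = 0.0130). Esco2 had 5.95 and 6.06 TPM in circSRY KO and 21.2 and 13.8 TPM in control (-1.15 ± 0.35, adjusted p = 0.0184). For both genes the control libraries differed from each other, by 1.39-fold and 1.53-fold, and each call was lost when control replicate 2 (-1.003 and -0.97), control replicate 3 (-1.22 and -1.39) or circSRY KO replicate 2 (-0.95 and -0.93) was left out. Without either control library the adjusted p missed the threshold (0.212 and 0.260 without replicate 2).

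TPM ratios between genes of related function, some of them subunits of one complex and others separate kinesins, were also taken. Ratios between genes within a library do not depend on how libraries are scaled, and 12 pairs were taken after their values were seen, so they are descriptions. Spc25 over Spc24 was 6.32 and 5.95 in circSRY KO libraries and 0.976 and 1.11 in control libraries. Cenpa over Cenpc1 was 2.64 and 1.95 in circSRY KO and 0.415 and 0.646 in control, and Cenpe over Kif11 was 2.95 and 2.31 in circSRY KO and 0.612 and 0.847 in control. In each of these pairs the gene of lower TPM in control was the one of higher TPM in circSRY KO, apart from Spc25 over Spc24 in control replicate 3. Bub1 over Bub1b was 2.24 and 2.19 in circSRY KO and 1.07 and 0.937 in control, and Birc5 over Cdca8 was 2.85 and 2.05 in circSRY KO and 0.770 and 0.999 in control. Groups did not overlap in 11 of the 12 pairs, and the exception was Ndc80 over Nuf2. A share over other gene pairs was not taken, so this count is no result about these genes. For TPM of single genes, 38.8% of all genes tested had both circSRY KO libraries below both controls and 29.5% above. With 2 libraries against 2, a two-sided exact permutation test cannot give a p below 0.33.

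**Figure D3:**
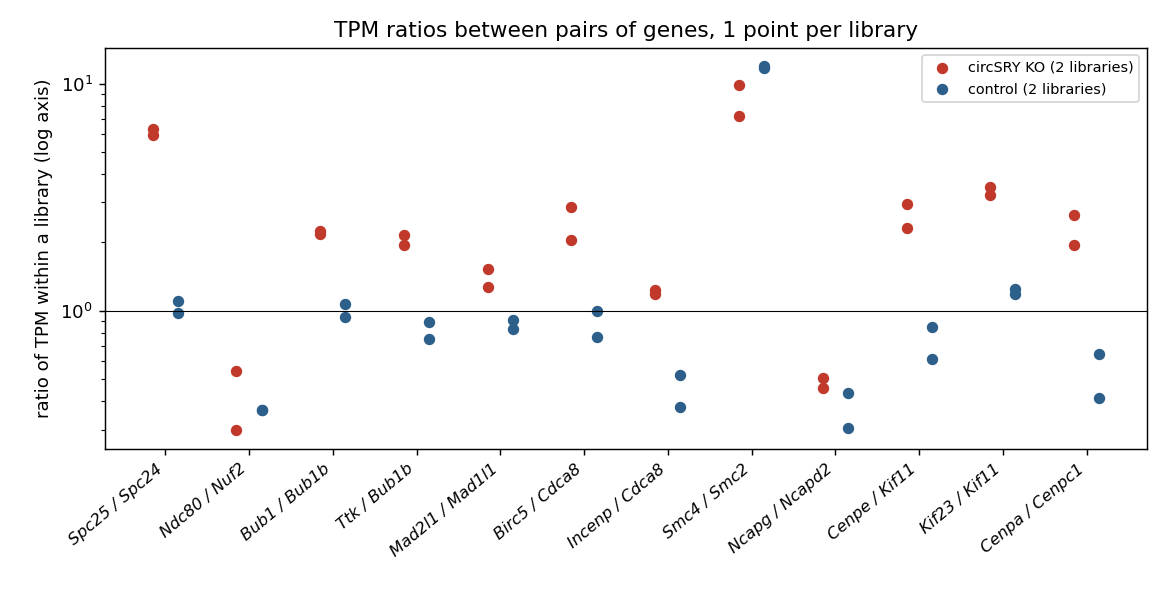
Ratio of TPM between 12 pairs of genes (log axis), 1 point per library, circSRY KO in red to the left of control in blue. The pairs were chosen after their values were seen. The groups lie apart in 11 pairs, and the widest separation is that of Spc25 over Spc24, at 6.32 and 5.95 in circSRY KO and 0.976 and 1.11 in control.

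Further genes of the same pathway were counted from 7 lists that share no gene with the 36, and of 76 tested, 22 fell, 6 rose and 48 were not called (median log2 fold change -0.60). Over all genes tested, 15.0% were called lower and 20.0% higher. The MIS12 and SKA complexes, which join CENP-C to the NDC80 rod and track microtubule ends, had 5 of 7 genes lower. Nsl1 had 2.13 and 1.83 TPM in circSRY KO, against 18.5 and 9.31 TPM in control (-2.35 ± 0.40, adjusted p = 0.000605). Dsn1 and Pmf1, of the MIS12 complex like Nsl1, fell by 1.35 and 1.63 on the log2 scale.

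A list of 7 genes held the RZZ complex of the kinetochore corona, its dynein adaptor Spindly (Spdl1) and the microtubule plus-end proteins Clasp1, Clasp2 and Clip1, and 4 of 7 fell and 1 rose. Zwilch had 17.5 and 19.3 TPM in circSRY KO and 95.8 and 87.3 TPM in control (-2.18 ± 0.31, adjusted p = 0.000224), and Kntc1, also of RZZ, and Clasp2 fell by 1.70 and 1.59 on the log2 scale. Of the 15 genes of the constitutive centromere network, the proteins that sit on CENP-A chromatin beside CENP-C, 4 fell and 1 rose. Cenpq had 9.02 and 7.04 TPM in circSRY KO and 42.4 and 35.5 TPM in control (-2.05 ± 0.37, adjusted p = 0.000825), and Cenpo and Cenpt changed by -1.85 and -1.65. Among 5 genes for the deposition of CENP-A, Mis18a (-1.37) and Oip5 (-1.40) fell.

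The anaphase-promoting complex, the target of the checkpoint, had 3 of 19 genes lower and 2 higher. These counts were near or below the shares over all genes tested, 15.0% lower and 20.0% higher. Its scaffold Anapc1 had 6.22 and 14.4 TPM in circSRY KO and 42.1 and 31.1 TPM in control (-1.63 ± 0.36, adjusted p = 0.00297), while Ube2c, the ubiquitin-conjugating enzyme that works with the complex, rose (1.17, adjusted p = 0.0138). Of 17 mitotic kinesins and central spindle genes, 4 fell and 2 rose. Numa1, which gathers microtubules at spindle poles, had 10.3 and 14.0 TPM in circSRY KO and 47.5 and 37.9 TPM in control (-1.87 ± 0.34, adjusted p = 0.000870). Kif2b, a microtubule-depolymerizing kinesin, rose, with 331 and 519 TPM in circSRY KO and 115 and 157 TPM in control (1.85 ± 0.35, adjusted p = 0.00127). The other genes that rose, named after their values were seen, were Kif2c (1.07), Clip1 (1.10), Anapc10 (1.14) and Cenpi (1.04). The 6 tested genes for checkpoint silencing and the meiotic kinetochore included no called gene in edgeR's test, and the meiotic kinetochore regulator Meikin came nearest (-0.94, adjusted p = 0.0479).

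**Figure D4:**
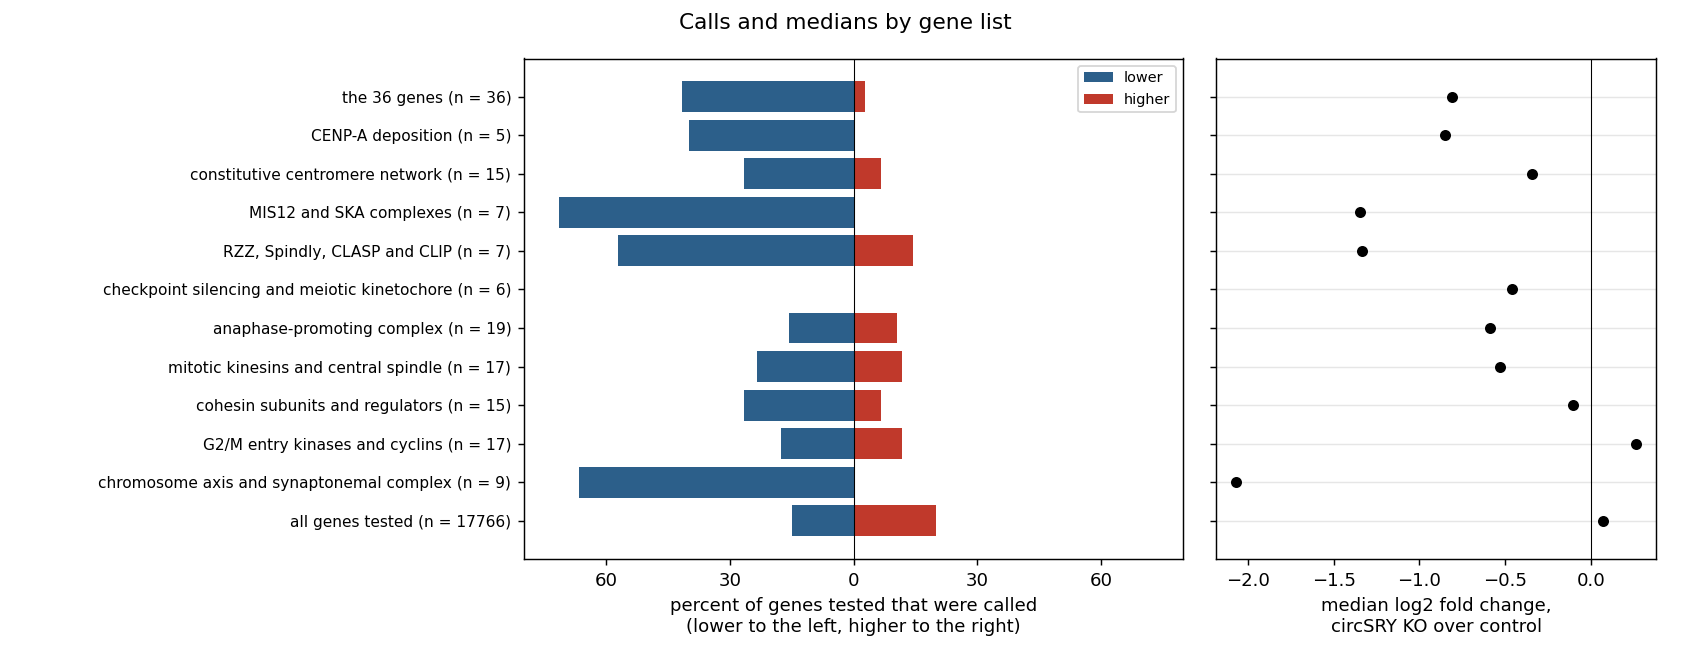
Percent of tested genes called lower (blue, to the left) and higher (red, to the right) in each list, with the median log2 fold change of circSRY KO over control at the right. The 36 genes had 15 lower and 1 higher, the 9 tested chromosome axis genes had 6 lower, and over all 17766 genes tested 15.0% were lower and 20.0% higher.

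Gene groups of related function differed in their counts, without a test between lists. Over all genes tested, 15.0% were lower and 20.0% higher, and counts of the G2/M list were near or below these shares. Chromosome axis and synaptonemal complex genes had 6 of 9 lower (median -2.07), cohesin subunits and regulators had 4 of 15 lower and 1 higher (median -0.11), and kinases and cyclins of G2/M entry had 3 of 17 lower and 2 higher (median 0.27). The 36 genes lay between these groups (median -0.81).

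Markers of several cell types moved with the same contrast, and their part in the results above was not tested. Of all genes tested, 15.0% were called lower and 20.0% higher. The 10 markers of pachytene and diplotene cells summed to 8797 and 9031 TPM in circSRY KO and 11660 and 12620 TPM in control. Of these 10 genes, 2 were lower, 1 was higher and 7 were not called, near or below the shares over all genes tested. Ldhc alone gave 4581 and 4863 TPM of the sums in circSRY KO and 4921 and 5812 TPM in control. Piwil1 was lower, at 17.2 and 31.1 TPM in circSRY KO and 643.7 and 467.8 TPM in control (log2 fold change -4.32). Mybl1 was the other lower gene (-1.065), and Pgk2 was the higher one (1.66). Leptotene and zygotene markers had 9 of 12 lower and summed to 622 and 503 TPM in circSRY KO, against 2288 and 1621 TPM in control. Hormad1, Sycp1, Sycp2 and Sycp3, all lower, and Syce3, not called, are also in the chromosome axis list above, so those counts share genes. Tex101 alone gave 70.0 and 46.9 TPM of the sums in circSRY KO and 801 and 523 TPM in control. Markers of replicating cells, which also use the mitotic genes, had 5 of 15 lower (433 and 387 TPM in circSRY KO, 736 and 627 TPM in control), and 4 of 10 spermatogonial markers were higher (284 and 207 TPM in circSRY KO, 198 and 154 TPM in control). Among spermatid markers, 11 of 13 of round and 10 of 11 of elongating cells were higher, and the elongating list summed to 53570 and 44350 TPM in circSRY KO and 9697 and 9587 TPM in control.

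Somatic markers moved in both directions, with 13 of 13 leukocyte (609 and 422 TPM in circSRY KO, 40.5 and 32.4 TPM in control), 11 of 12 stromal and 9 of 10 tested Sertoli genes higher and 8 of 8 Leydig genes lower. Of 4 tested erythroid genes 1 was higher, and no call was made in edgeR's test among 7 endothelial genes. No listed marker was at 0 in all 4 libraries. A list of 12 immediate early and heat shock genes, the latter being Hspa1a and Hspa1b, had 10 higher, Hspa1a among them. Of 13 mitochondrially encoded genes 2 were lower. Of all genes tested, 15.0% were called lower and 20.0% higher, and the erythroid and mitochondrial counts were near or below these shares.

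Replicates of the 36 genes were not equally close in the groups. The TPM ratio of circSRY KO replicate 1 over 2 ran between 0.403 (Knl1) and 1.80 (Birc5), with a median of 1.03, and the ratio of control replicate 2 over 3 between 0.714 (Cenpa) and 1.56 (Ncapg2), with a median of 1.15. The genes that were lower in every fit, Cenpc1 and Mad1l1, had replicate ratios of 0.797 and 1.22 in circSRY KO and 1.11 and 1.10 in control. The other genes that fell kept negative fold changes without control replicate 2, as shown in the plot of fold changes under each processing choice. Bub1b went from -1.435 to -1.424 and Ncapg2 from -1.143 to -0.923. With 1 control library left, a lost call does not tell a smaller difference from a poorer estimate of error.

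**Figure D5:**
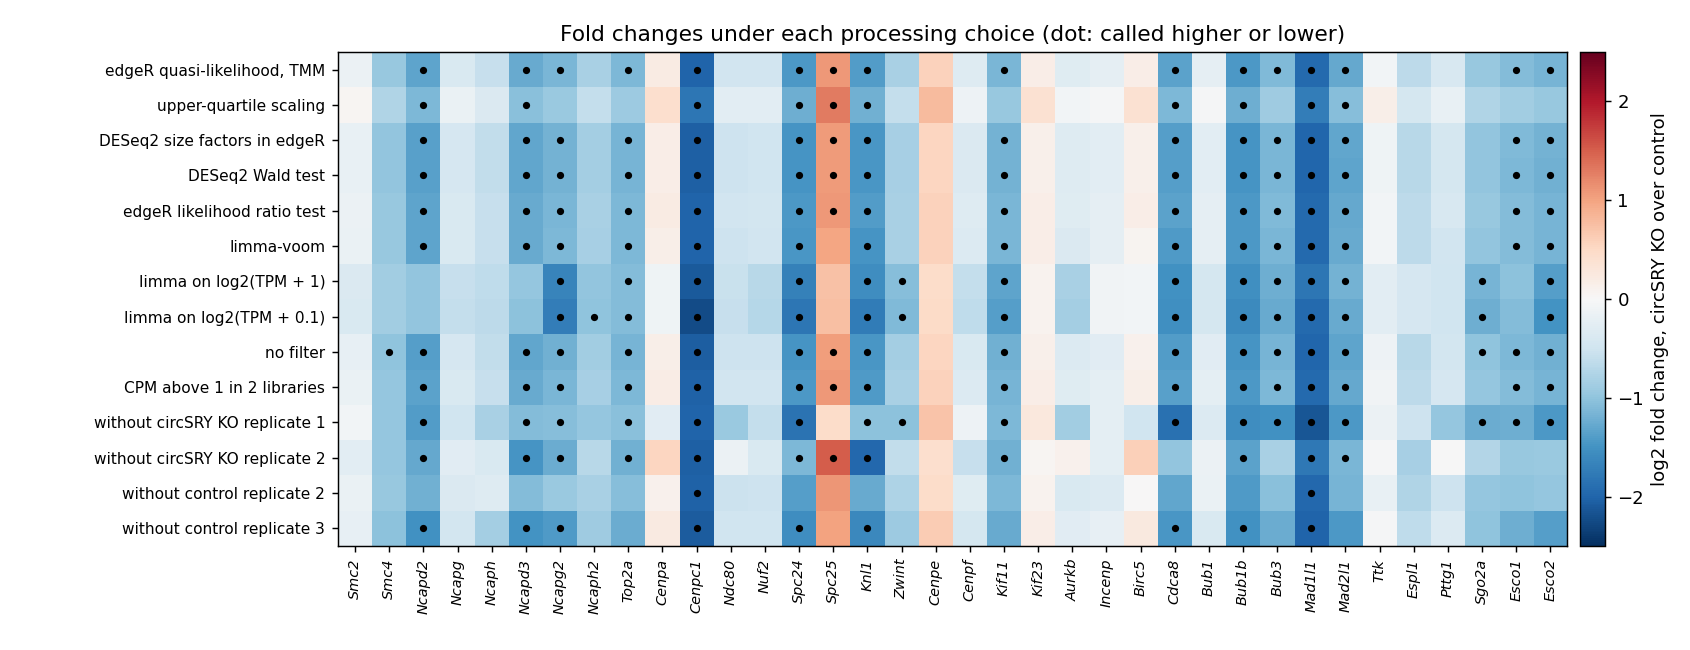
Log2 fold change of circSRY KO over control (color) for each of the 36 genes under edgeR's quasi-likelihood test with TMM scaling and the other processing choices, with a dot where the gene was called. Cenpc1 and Mad1l1 are called in all 14 fits, and without control replicate 2 they are the only genes of the 36 called.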

How the data were processed

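RNA-seq of Hoechst-sorted spermatocytes from 2 circSRY KO and 2 control mice was analyzed. Per the submitters' processing notes the tools were STAR 2.7.0f, RSEM 1.3.2 and edgeR 3.28.1, with GRCm39 and mm9 as builds. For the annotation, the release was not given in the sources used here. Expected counts were deposited as the authors' RSEM estimates per gene before normalization. The deposited TPM are the authors' values scaled to a fixed sum per library. FPKM, a copy of the TPM columns and the authors' comparison (fold changes and p-values) were not used.

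Expected counts were rounded to whole numbers, filtered with filterByExpr, scaled by TMM and tested over all genes with edgeR's quasi-likelihood test (edgeR 4.0.16, R 4.3.3) with Benjamini-Hochberg adjustment. A call asked for FDR under 0.05 together with a log2 fold change of 1 or more in either direction, and the standard error was derived from the F statistic. The code was tested on simulated data. Alternatives were other scalings, DESeq2 1.42.0, edgeR's likelihood ratio test, limma 3.58.1 (voom, and log2 of TPM with a pseudocount of 1 or 0.1), other filters, and leaving out each library. Replicates of a group differed by more than sampling noise (chi-square per gene 35.7 in circSRY KO and 11.2 in control). The study describes the replicates as separate mice.

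The 36 genes and all lists were chosen with earlier results of these data known. Values per library were to be given for each called gene and the 2 genes of highest mean TPM in each role, and for lists up to 3 called genes by adjusted p. Further values were added. Overlapping exons were read from GENCODE M39 on GRCm39, where Six6os1 of the synaptonemal list had no row in the table, and promoters from RefSeq on GRCm38.p6. The sequences of the promoters of 6 genes (Smc4, Spc24, Aurkb, Incenp, Esco1 and Esco2) were not used here.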

Additional observations from a re-analysis of the deposited data

How the results depend on the processing

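Over the 36 genes and all alternatives, 409 gene-level values kept their direction and side of the threshold, 41 lost a call, 9 gained one and 9 changed sign. All sign changes were in genes that were not called: Smc2 (0.055) and Ttk (0.14) with upper-quartile scaling, Cenpa with limma on TPM (-0.11 with either pseudocount) and without circSRY KO replicate 1, Birc5 with limma on TPM (-0.065 and -0.066 with pseudocounts of 1 and 0.1) and without circSRY KO replicate 1, and Aurkb without circSRY KO replicate 2. When 1 library was left out, Cenpa ran between -0.28 and 0.54, Birc5 between -0.51 and 0.60 and Aurkb between -0.87 and 0.10. The count of lower genes was 9 with upper-quartile scaling and 2 to 17 when 1 library was left out. The count of higher genes was 0 with limma-voom and with limma on TPM at either pseudocount, and 0 to 1 when 1 library was left out. The median was -0.60 with upper-quartile scaling and -0.97 to -0.71 when 1 library was left out. Limma on TPM called 14 and 15 genes lower (pseudocounts of 1 and 0.1), of which 12 were shared with the edgeR result each time. Without a filter on low counts 17 were lower. The causes were not tested. No paired analysis was possible because the groups share only the replicate number 2. With 2 libraries a group, 2 genes of low counts, Cenpa (61 to 117) and Spc24 (43 to 160), had the widest standard errors.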
